A study of Homo sapiens with 6 samples.

Results

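In this series of 6 arrays each plasmid was measured under the replicate numbers 1, 2 and 3, and the 2 arrays that carry number 1 were set against the 4 that carry number 2 or 3. All 6 arrays held RNA from 1 cell line, MDA-MB-231, which derives from a triple-negative breast cancer and is widely grown in culture, collected 24 h after plasmid transfection. Of the 2 arrays of replicate number 1, the first came from cells given the empty vector and the second from cells given pCIRC2T7-*circAAGAB*, a plasmid that expresses the circular RNA *circAAGAB*, and the other 4 arrays were 2 with the empty vector and 2 with the *circAAGAB* plasmid. The members were chosen by the number in their titles. Attention fell on number 1 because these arrays had stood apart in an earlier look at the same data, so the p-values below do not allow for that choice. No source used here says whether a number stands for a culture, a day, a labelling run or a scan, so these cannot be told apart. The study's methods describe its quantitative data in general as coming from independent experiments, but neither they nor the labels say this of the arrays, and p-values therefore reflect only how these arrays scatter, for reasons that can be technical. The precision is limited by the number of arrays.

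The question was which genes and functions separated replicate 1 from replicates 2 and 3 on both plasmids. Cell division, described in most detail below, had the largest share of lower genes among 36 gene lists but supplied few of all the calls. Before mitosis, centrosomes are copied and mature, condensin compacts the chromosomes, and cohesin rings, shielded at centromeres by shugoshins, hold sister chromatids together. Kinetochore proteins and kinesin motors then attach the chromatids to the spindle and move them. Many of these proteins, like those that tether vesicles at the Golgi, are long coiled coils encoded by large genes.

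The log2 signals, summarised by robust multichip averaging, were compared for all 21448 probe sets with limma, with the plasmid as a covariate and Benjamini-Hochberg adjustment. A probe set was called lower or higher when replicate 1 differed from replicates 2 and 3 at an adjusted p under 0.05. By this rule 1986 probe sets (9.26%) were lower and 1147 (5.35%) were higher in replicate 1. The falls were the larger, since 390 of the lower probe sets and 21 of the higher ones differed at least 2-fold. The median difference was -0.75 among the lower calls and 0.60 among the higher calls on the log2 scale, against 0.09 over all probe sets. Each call had the same direction on both plasmids. This agreement is largely built into the rule, because the fit averages both plasmids and counts their disagreement as scatter. The medians were -0.64 with the empty vector and -0.86 with *circAAGAB* among the lower calls, and 0.51 and 0.68 among the higher calls. The 2 and the 4 arrays did not overlap in 1963 of the lower and 1134 of the higher probe sets, and neither did they in 45.6% of all probe sets.

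**Figure D1:**
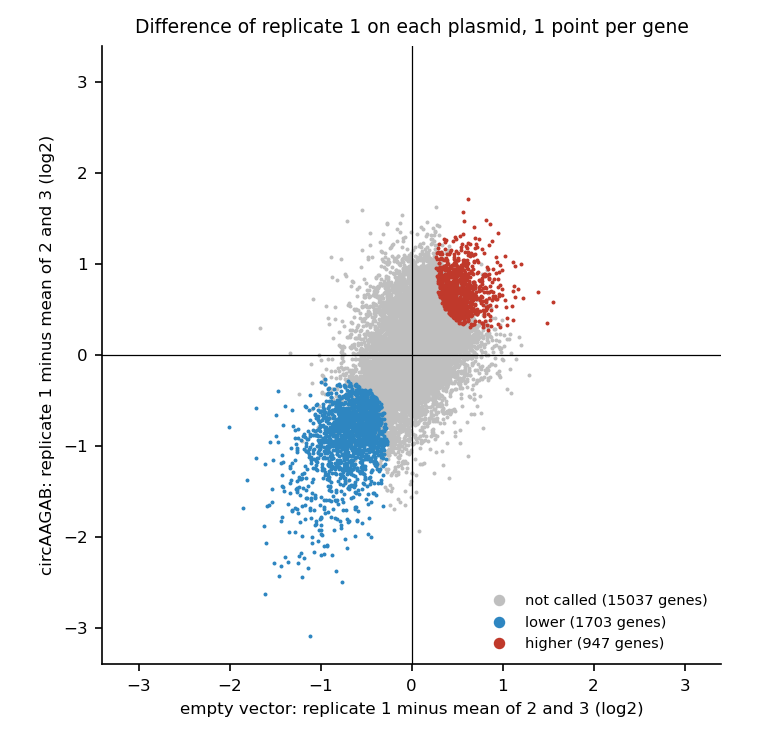
Difference of replicate 1 from the mean of replicates 2 and 3 (log2) in the empty vector arrays (horizontal axis) and in the *circAAGAB* arrays (vertical axis), 1 point for each of 17687 genes. The 1703 genes called lower (blue) all lie below 0 on both axes and the 947 called higher (red) all lie above 0 on both, and the grey points are the genes not called. The rule for a call largely requires this, because the fit averages both plasmids.

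These calls rested on the *circAAGAB* array of replicate 1. Without it the empty vector array alone stood for replicate 1, and limma called 0 probe sets, with 4081 at an unadjusted p under 0.05 and a smallest adjusted p of 0.109. Without the empty vector array of replicate 1 the number was 3494. It fell to 450 without empty vector replicate 3, to 360 without *circAAGAB* replicate 3 and to 1589 without *circAAGAB* replicate 2, while it was 2139 without empty vector replicate 2. Lower probe sets made up 63.4% of the calls, and this share was 75.5% when each array was centred on its median and 76.2% after cyclic loess normalization. The unpaired test of the study's methods gave 0 calls after adjustment and 6100 probe sets at an unadjusted p under 0.05.

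Replicates 2 and 3 were closer to each other than to replicate 1. In a fit with a level for each number, limma called 0 probe sets (0%) between replicates 2 and 3, with 1026 at an unadjusted p under 0.05. It called 1576 (7.35%) between replicates 1 and 3 and 0 (0%) between replicates 1 and 2, where 5581 had an unadjusted p under 0.05 and the smallest adjusted p was 0.0859. The SD of the differences over all probe sets was 0.20 for 2 minus 3, 0.39 for 1 minus 2 and 0.44 for 1 minus 3. In 1611 of the 1986 lower probe sets (81.1%) the mean of replicate 2 lay between those of replicates 1 and 3, and in 611 of the 1147 higher ones (53.3%). The test of whether the difference of replicate 1 depended on the plasmid called 0 probe sets (0%), with 2528 at an unadjusted p under 0.05, 11.8% of all, and a smallest adjusted p of 0.263. The SD of the differences was 0.37 with the empty vector and 0.53 with *circAAGAB*.

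Most of the markers listed as present in the line were bright in every array. *VIM*, *CD44*, *AXL*, *ANXA1*, *CAV1* and *MSN*, markers of a mesenchymal breast cancer cell, had signals between 9.90 and 11.72, and none of them was called between the replicate numbers. *SPARC*, listed with them, lay at 3.00 to 3.43, under the gauge of background used here, 4.65. The gauge was set at the percentile 95 of mean signals over 349 olfactory receptor genes. *PGR* and *CDH1*, which the line is known to lack, were under the gauge in every array. *EPCAM* (7.54 to 7.97) and *GATA3* (5.96 to 6.65), listed as low or absent too, were above it. *ERBB2*, another of that list, had no probe set under its symbol. *AAGAB*, the host gene of the plasmid's insert, had signals of 7.56 to 7.73 with the empty vector and 10.97 to 11.75 with the *circAAGAB* plasmid. It was not called between replicate 1 and the others, at a difference of -0.20 (standard error 0.21, limma adjusted p = 0.51) that became 0.03 after centring by gene span. *ESR1* and *ESRP1*, also listed as low or absent, had mean signals of 4.65 and 2.58, under the gauge, and were called higher (differences 0.53 and 1.07). The mean over each marker list of other cells was higher in both arrays of replicate 1 than in the other 4. The counts of calls in these lists stand beside 5.35% higher and 9.26% lower over all probe sets. The mean signal of 18 luminal breast markers was 5.78 to 5.81 in replicate 1 and 5.49 to 5.53 in the other 4 arrays, with 3 of 18 called higher. That of 25 blood cell markers was 4.72 to 4.95 against 4.54 to 4.59 (1 of 25 called higher), and that of 16 fibroblast and stromal markers was 4.53 to 4.54 against 4.38 to 4.41 (2 higher, 1 lower). The 349 olfactory receptor genes, which breast cells do not use, moved by a like amount, 2.82 to 2.89 against 2.59 to 2.66. Of them 27 (7.74%) were called higher. The part of this raised floor in the other results was not tested.

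Values of single genes are given below in the same order throughout. The first 2 are replicate 1 with the empty vector and with *circAAGAB*, and the other 4 are empty vector replicates 2 and 3 and *circAAGAB* replicates 2 and 3. All are log2 signals as deposited.

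Among the genes above the gauge whose arrays did not overlap, the 12 of largest fold on the lower side had differences of -2.10 to -1.73. In 11 of them the mean of replicate 1 was under the gauge, and they passed the filter on mean signal through replicates 2 and 3, so the size of their differences is uncertain and the fold is not given. *CCDC66*, a coiled-coil protein of centriolar satellites, had 4.67 and 3.36 in replicate 1 against 5.62, 5.96, 6.38 and 6.51. The difference was -2.10 (standard error 0.38, limma adjusted p = 0.018), and it was larger with *circAAGAB* (-3.09) than with the empty vector (-1.12), although the test of that difference did not pass (adjusted p = 0.263). *SGO2*, the shugoshin that shields centromeric cohesin, had 4.54 and 4.05 against 5.78, 6.34, 6.12 and 6.55 (difference -1.90, standard error 0.24, limma adjusted p = 0.013). In both genes each array of replicate 1 lay below all other arrays by more than 0.9, and the array with *circAAGAB* was the lowest.

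*ATRX*, a chromatin remodeller of heterochromatin, had 4.04 and 3.30 against 5.21, 5.73, 5.27 and 5.96, and *CHD9*, a chromodomain helicase, had 5.04 and 4.24 against 6.22, 6.64, 6.17 and 6.75. *CEP290*, which builds the gate at the base of the cilium, had 4.69 and 4.56 against 6.23, 6.40, 6.12 and 6.75. These 3 genes differed by -1.87, -1.81 and -1.75. The Golgi tether *TRIP11* and the dynein adaptor *HOOK3* differed by -1.83 and -1.82, *CROT*, a peroxisomal carnitine transferase, by -1.82, and *SRP54*, the subunit of the signal recognition particle that binds signal peptides, by -1.77. *NUP133*, a scaffold protein of the nuclear pore, differed by -1.74 and *CCDC18* by -1.73. *ESF1*, a nucleolar protein of ribosomal RNA processing, was the one of the 12 in which the empty vector array was the lowest, with 5.38 and 5.66 against 6.91, 7.56, 6.85 and 7.84. Adjusted p-values over these 12 genes were 0.013 to 0.018.

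**Figure D2:**
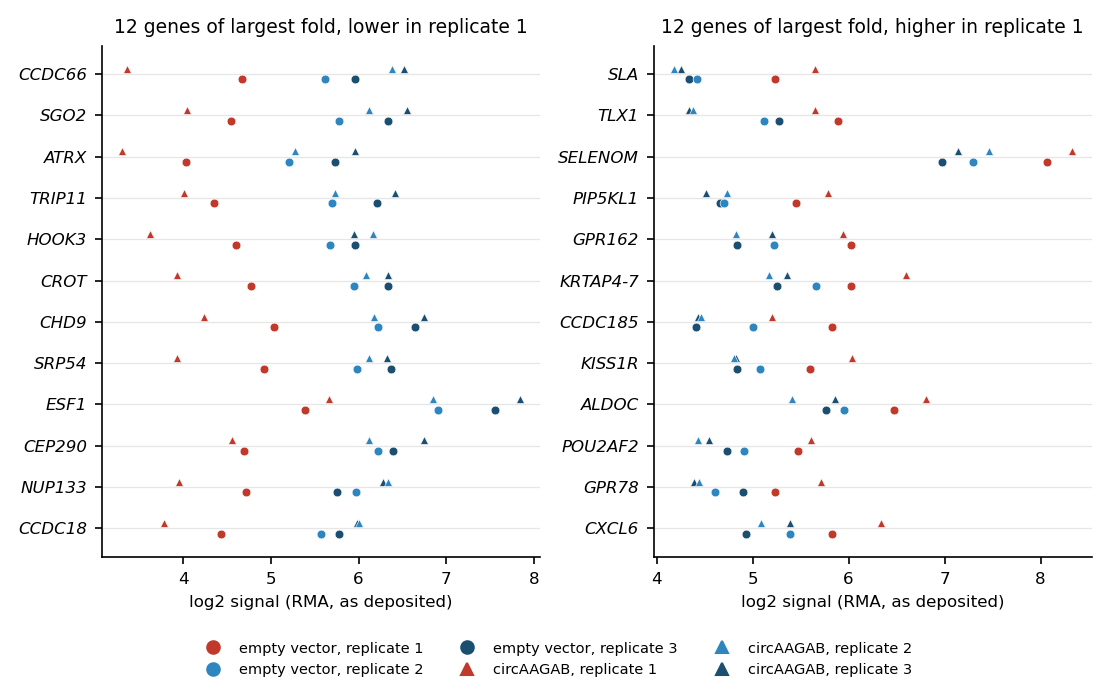
Log2 signal (horizontal axis) of the 12 genes of largest fold in each direction, 1 symbol per array, with replicate 1 in red, replicate 2 in light blue and replicate 3 in dark blue, circles for the empty vector and triangles for *circAAGAB*. The red symbols lie left of all blue ones in the left panel and right of them in the right panel, and on the left replicate 3 lies beyond replicate 2 for most genes.

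On the higher side the 12 genes of largest fold differed by 0.88 to 1.15. *SLA*, an adaptor of lymphocyte receptor signalling, had 5.24 and 5.65 in replicate 1 against 4.42, 4.33, 4.18 and 4.25 (difference 1.15, standard error 0.16, limma adjusted p = 0.013). Its mean over replicates 2 and 3 was under the gauge, as were those of *CCDC185*, *GPR78* and *PIP5KL1*, and these 4 genes passed the filter through replicate 1. *TLX1*, a homeobox factor of spleen development, had 5.89 and 5.65 against 5.12, 5.28, 4.38 and 4.34, a difference of 0.99. *SELENOM*, a selenoprotein of the endoplasmic reticulum, was the brightest of the 12, with 8.07 and 8.33 against 7.30, 6.97, 7.47 and 7.14, and differed by 0.98. The remaining 9 differed by 0.88 to 0.97. They included the kisspeptin receptor *KISS1R*, the orphan receptors *GPR162* and *GPR78*, the hair gene *KRTAP4-7*, the glycolytic aldolase *ALDOC* and the chemokine *CXCL6*. Their signals lay between 4.39 and 6.80 over all arrays.

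Low signal was common among the higher calls as a whole. Probe sets with a mean signal under the gauge made up 41.3% of them, 10.0% of the lower calls and 31.5% of all probe sets. Of 5593 genes with a mean signal of at least 7, 818 were called lower and 116 higher. Bright genes of the higher side included *METTL25B* (7.86 and 7.52 against 6.95, 6.88, 6.82 and 6.74, difference 0.85), *S100A13*, a small calcium-binding protein (difference 0.74), and *SREBF1*, which drives fatty acid synthesis (difference 0.70). On the lower side the largest changes at such signals were those of *KTN1*, the kinectin of the endoplasmic reticulum, *UACA* and *NOL8*, a nucleolar protein (-1.71, -1.63 and -1.61). In 10 bins of equal size by mean signal, the share called lower went from 1.21% in the dimmest bin to 17.6% in the eighth and was 8.48% in the brightest, while the share called higher was 9.05% in the fourth bin and 0.886% in the brightest. The arrays of replicate 1 also had the narrowest distributions, with SDs of 2.11 and 2.08 against 2.17 to 2.21. The part of signal in the calls was not tested.

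Mitosis and the G2/M transition held the largest share of lower calls among the 36 gene lists described here, all of them chosen with earlier results of these data known. Of its 48 members 20 were lower (41.7%, beside 9.26% of all probe sets) and 0 higher, and its median was -0.38 (0.09 over all probe sets), or -0.37 with the empty vector and -0.51 with *circAAGAB*. *NUF2*, a subunit of the kinetochore complex that grips microtubules, had 6.68 and 6.78 against 7.80, 8.24, 8.04 and 8.34, and was 2.59-fold lower (difference -1.37, standard error 0.16, limma adjusted p = 0.013). *ECT2*, the exchange factor that starts the cleavage furrow, had 7.67 and 7.37 against 8.84, 9.03, 8.74 and 9.03, and differed by -1.39. *CKAP2*, a protein of spindle microtubules, had 7.25 and 6.80 against 8.31, 8.54, 8.50 and 8.70, and differed by -1.49. In these 3 genes the lowest of the 4 other arrays was at least 1 log2 unit above the higher array of replicate 1.

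The kinetochore proteins *CENPF* and *CENPE* differed by -1.48 and -1.15 and the kinesins *KIF18A*, *KIF20B*, *KIF11* and *KIF14* by -1.22, -1.05, -0.87 and -0.73. *PBK*, a mitotic kinase, differed by -0.99 (7.24 and 7.37 against 8.14, 8.27, 8.44 and 8.33), and the spindle checkpoint kinase *TTK* by -0.82. *CDK1*, the kinase that drives entry into mitosis, had 8.13 and 8.19 against 8.73, 8.79, 8.92 and 8.90, a difference of -0.68. *CENPF* had 6.97 and 6.80 in replicate 1, 7.91 and 7.93 in replicate 2 and 8.59 and 9.03 in replicate 3, so that replicate 2 lay between the others on both plasmids. In RNA of whole cultures, fewer cells in mitosis and less RNA per cell cannot be told apart. Neither can be told apart from a difference in labelling or scan, since no source says what the number stands for.

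Other genes of the same phase were at like levels under all 3 numbers. *PLK1*, the kinase of spindle assembly, had 10.67 and 10.54 against 10.68, 10.62, 10.59 and 10.50, a difference of 0.01 (standard error 0.12, limma adjusted p = 0.97). *AURKA*, *CCNB2*, *PTTG1*, *BUB3* and *CCNA2*, which encode a centrosomal kinase, a B-type cyclin, securin, a checkpoint protein and cyclin A, differed by -0.08 to 0.04 and were not called. *BIRC5*, *UBE2C*, *CDC25B* and *AURKB* had differences of 0.22 to 0.35 and were not called either. The 20 lower members had a median gene span of 52.6 kb and the other 28 one of 19.3 kb. The longest of those not called were *KIF4A* (131 kb, difference -0.38), *CENPI* (83.7 kb, -0.41) and *TPX2* (62.5 kb, -0.33), and the shortest of the lower ones was *CKS2* (5.51 kb, -0.60). Without *circAAGAB* replicate 1 no member was called, and 5 were when either array of replicate 3 was left out, while the median stayed between -0.36 and -0.51 when any 1 array was left out.

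**Figure D3:**
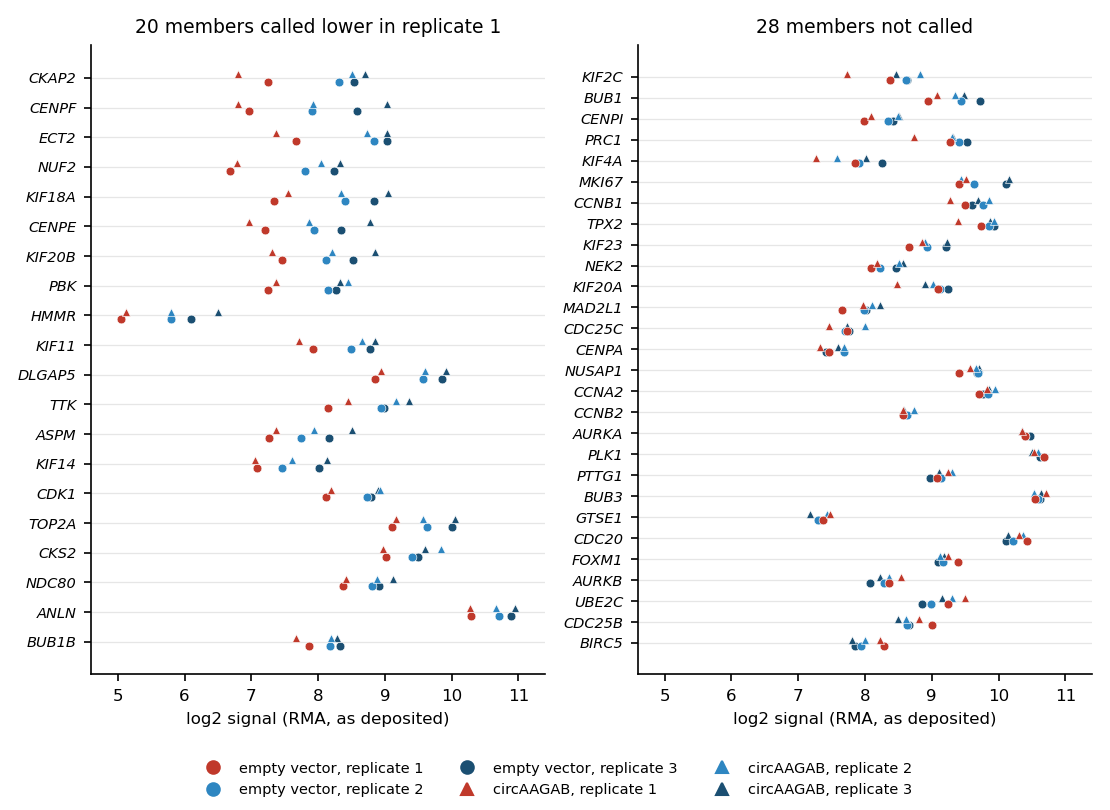
Log2 signal (horizontal axis) of the 48 measured members of the mitosis and G2/M list, 1 symbol per array, ordered by their difference, with the 20 called lower on the left and the 28 not called on the right. Replicate 1 (red) lies below both other numbers for every gene on the left, and the symbols of *AURKA*, *PLK1* and *CCNB2* on the right lie close together.

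Because genes of mitosis commonly share a promoter element, the cell cycle genes homology region, the promoters of lower and uncalled members are shown together. The sequences are the 250 bases before the gene start from RefSeq on GRCh38.p14, 5′ to 3′ on the gene's strand, with the element TTTGAA (searched on both strands, where it reads TTCAAA on the other) in capitals. *KIF18A* and *CDK1* were lower in replicate 1, and *PLK1* and *CCNB2* were not called.
KIF18A (chr11:28108157-28108406, minus strand): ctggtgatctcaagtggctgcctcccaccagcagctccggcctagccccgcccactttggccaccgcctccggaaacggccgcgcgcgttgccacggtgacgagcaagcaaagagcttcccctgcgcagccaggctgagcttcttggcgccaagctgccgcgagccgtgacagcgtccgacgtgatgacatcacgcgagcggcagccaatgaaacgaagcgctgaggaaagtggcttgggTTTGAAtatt
CDK1 (chr10:60778228-60778477, plus strand): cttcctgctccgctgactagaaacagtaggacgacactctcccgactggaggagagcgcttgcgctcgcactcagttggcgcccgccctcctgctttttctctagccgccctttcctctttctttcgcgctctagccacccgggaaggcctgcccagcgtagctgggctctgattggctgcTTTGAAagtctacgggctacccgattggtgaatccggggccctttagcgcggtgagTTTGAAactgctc
PLK1 (chr16:23678639-23678888, plus strand): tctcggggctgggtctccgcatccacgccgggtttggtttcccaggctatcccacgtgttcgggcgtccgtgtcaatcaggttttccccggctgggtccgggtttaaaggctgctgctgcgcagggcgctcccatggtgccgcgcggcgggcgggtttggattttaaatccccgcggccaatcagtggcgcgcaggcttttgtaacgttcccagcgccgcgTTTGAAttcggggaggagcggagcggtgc
CCNB2 (chr15:59104896-59105145, plus strand): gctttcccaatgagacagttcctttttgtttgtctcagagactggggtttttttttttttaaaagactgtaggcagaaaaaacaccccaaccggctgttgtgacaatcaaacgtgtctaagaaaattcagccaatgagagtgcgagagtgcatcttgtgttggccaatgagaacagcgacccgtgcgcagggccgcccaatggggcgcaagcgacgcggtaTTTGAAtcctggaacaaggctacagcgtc
The element lay in the last 30 bases before the start in each of the 4, and *CDK1* held a further copy that begins 69 bases before it. A promoter was in the table for 18 of the 20 lower members and 22 of the 28 others. Of these, 11 of 18 lower ones (61.1%) and 10 of 22 others (45.5%) held the element in this window, beside 16.1% of 27305 genes. A match of these letters is a description and not a bound site.

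Members of related machinery, in 3 lists drawn up after values had been seen, are described without a test. Because the values were known when these lists were made, their counts add no support to the mitosis list. Over all probe sets 9.26% were lower. Of 28 genes for cohesin, condensin and the SMC5/6 complex, 16 were lower and 0 higher, with a median of -0.65. They included both variant subunits of cohesin, *STAG1* (5.98 and 5.26 against 7.01, 7.37, 6.90 and 7.60, difference -1.60) and *STAG2* (-1.48), the ring proteins *SMC3*, *SMC5* and *SMC6* (-1.35, -1.38 and -1.44), *SMC2* and *SMC4* of condensin (-0.99 and -0.79), and the loader *NIPBL* (-0.80). Of 23 coiled-coil proteins of the Golgi and endosomes 9 were lower, among them the tethers *GCC2* and *EEA1* (-1.42 and -1.37), whereas *GOLGA5*, *RRBP1* and *GCC1* were at like levels (-0.05 to 0.02). Of 20 chromatin remodelling ATPases 8 were lower, such as *SMARCA2* (-1.04) and *SMARCA5* (-0.81), and *CHD3* and *SMARCA4* had positive differences (0.47 and 0.31) that did not pass the test.

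When genes were grouped by the letters that open their symbols, giving 143 families of at least 15 genes, the CEP family of centrosomal proteins held the largest share of lower calls. Of its 36 members 17 were lower (47.2%) and 1 higher, with a median of -0.58. Besides *CEP290* the lower ones included *CEP57L1* (5.11 and 4.51 against 6.25, 6.18, 6.15 and 6.47, difference -1.45), *CEP295*, which lengthens centrioles (-1.28), and *CEP55* of the abscission bridge (7.50 and 7.62 against 8.39, 8.41, 8.56 and 8.55, -0.92). *CEP131*, a protein of centriolar satellites, was the higher one (difference 0.54). The NUP family of nuclear pore proteins had 7 lower of 20 (35%), and the KIF symbols, kinesins and 1 antisense RNA, 12 of 40 (30%) with 2 higher. The USP deubiquitinases had 15 of 60 lower (25%) and 1 higher, with a median of -0.02 and 21 members under the gauge. Families of other kinds lay between KIF and USP by share, such as DNAJC (8 of 28, 28.6%), ATG (5 of 18) and DHX (4 of 15).

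Regulators of splicing formed the second list with a raised share. Serine/arginine-rich (SR) proteins bind exons to recruit the splicing machinery, and the CLK kinases phosphorylate them. Of 26 such genes 10 were lower (38.5%) and 0 higher, with a median of -0.33. *CLK4* had 6.64 and 6.77 against 7.35, 7.43, 7.38 and 7.63 (difference -0.74, standard error 0.13, limma adjusted p = 0.018), and *SRRM2*, a scaffold of nuclear speckles, had 8.45 and 8.05 against 8.93, 9.08, 8.97 and 9.03 (-0.76). *CLK1* differed by -0.87, but its arrays overlapped, with 3.30 and 4.34 against 4.31, 4.38, 5.03 and 5.05. Its mean signal, 4.40, was under the gauge. *SRSF11*, *LUC7L3*, *NKTR* and *PNISR* differed by -0.77, -1.04, -0.93 and -0.96. The classical SR proteins *SRSF1* and *SRSF3* to *SRSF7* had differences of -0.27 to 0.02 and were not called. The core of the spliceosome had 2 of 29 lower.

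Zinc finger genes of the ZNF series, most of which encode transcription factors and many of which are repressors with a KRAB domain, were the list with the most members. Of 482 of them 112 were lower (23.2%) and 12 higher (2.49%), with a median of -0.21. *ZNF12* had 4.69 and 4.16 in replicate 1 against 5.93, 6.13, 6.04 and 6.18, a difference of -1.64, and *ZNF92* had 5.37 and 5.59 against 6.50, 7.05, 6.87 and 7.33, a difference of -1.45. In both genes the 2 and the 4 arrays were at least 0.9 apart, but the replicate 1 mean of *ZNF12*, 4.42, was under the gauge. Chromosome 19, which carries the large clusters of these genes, parted into the zinc finger genes and the rest. There 67 of 233 ZNF genes (28.8%) were lower and 2 higher, with a median of -0.34, whereas 9 of the 1023 other genes of the chromosome (0.88%) were lower and 92 (8.99%) higher, with a median of 0.27. On the other chromosomes 45 ZNF genes (18.1%) were lower and 10 higher. The ZNF genes of chromosome 19 had a median span of 23.1 kb, close to the 25.9 kb of all genes, and the other genes of the chromosome one of 12.8 kb, with median signals of 5.98 and 5.92.

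The stress and metabolic lists were nearer the background of 9.26% lower and 5.35% higher, or too short to read. Heat shock genes had 4 of 17 lower, the chaperone *HSP90AA1* (10.05 and 10.07 against 10.81, 11.03, 10.62 and 10.83, difference -0.76), *HSPA4L* (-0.92), *HSPE1* (-0.68) and *DNAJA1* (-0.46), while *HSPA1A*, *HSPB1* and *HSPD1* were within 0.14 of no difference and were not called. Of 33 amino acid response genes and tRNA ligases 6 were lower and 2 higher. Among them the ligases *NARS1*, *EPRS1*, *LARS1* and *IARS1* had differences of -1.45 to -0.69, and *DDIT4* and *NUPR1*, which respond to stress, were higher by 0.58 and 0.51. Of 46 interferon-stimulated genes 7 were lower, such as *SAMD9* (8.15 and 8.50 against 9.10, 9.52, 9.21 and 9.91, difference -1.11) and the RNA sensor *RIGI* (-0.57), and *IRF7* was higher (0.54). Hypoxia-induced genes had 4 of 23 lower and 2 higher, and *VEGFA*, *SLC2A1* and *NDRG1* were not called (differences of -0.03, 0.16 and 0.09).

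Clock genes had 3 of 17 lower, *CLOCK* (6.63 and 6.08 against 7.28, 7.77, 7.56 and 7.82, difference -1.25), *NR1D2* (-0.56) and *PER3* (-0.52), whereas *BMAL1*, the partner of *CLOCK*, had a difference of 0.28 that did not pass. Ribosome biogenesis had 6 of 35 lower, with *NOP58* (-0.78), *NPM1* (-0.71) and *NCL* (-0.65) among them. The proteins of the ribosome themselves were at like levels, with 1 of 53 cytosolic ones lower and a median of -0.04. Of 60 replication-dependent histones 1 was lower, as were 3 of 66 genes of oxidative phosphorylation and 2 of 36 of the proteasome, and 0 of 17 glycolytic enzymes were. Genes of DNA replication and the G1/S transition, the phase before, had 3 of 41 lower and 1 higher (median close to 0). Fatty acid synthesis had 2 of 12 higher, *SREBF1* and the synthase *FASN* (0.70 and 0.47), and 0 lower. As a list it was not raised, since 8 of the 12 differences were negative and the median was -0.12.

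**Figure D4:**
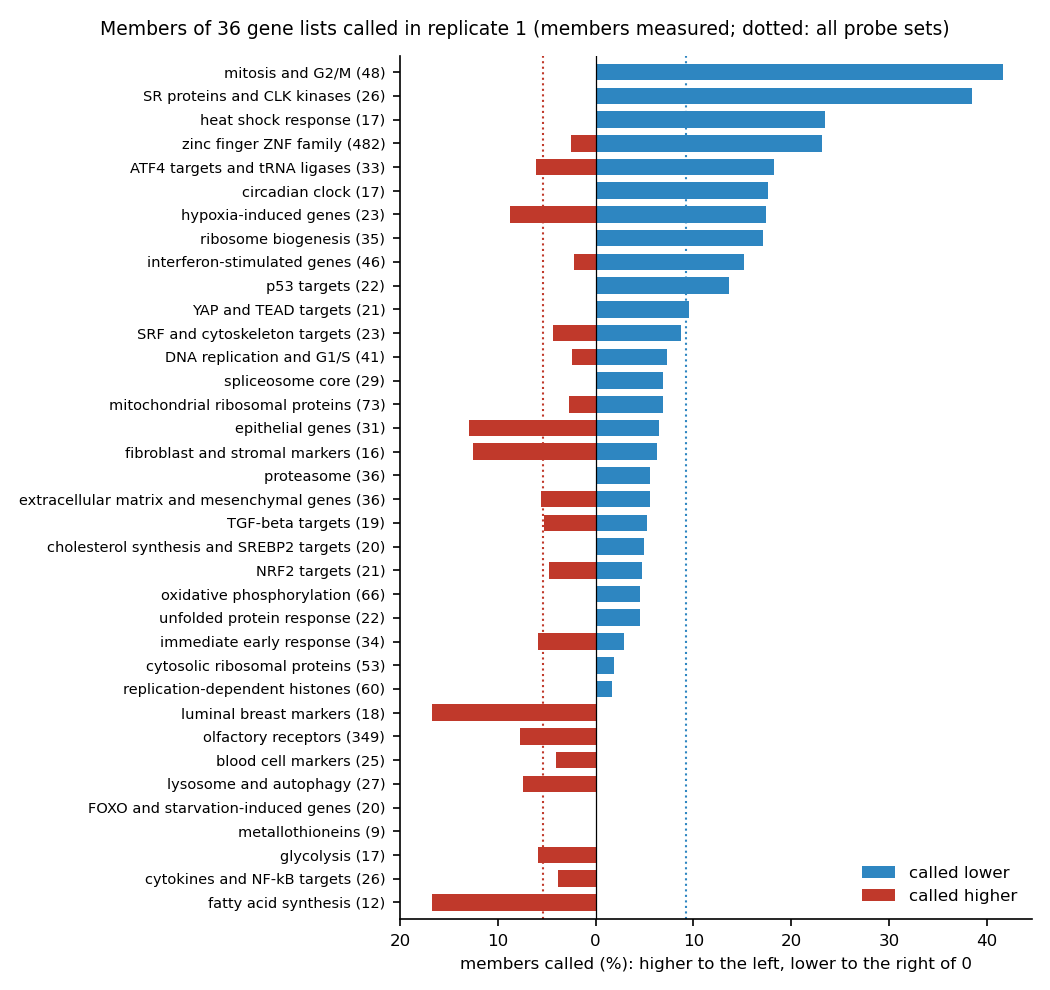
Share of the measured members of 36 gene lists called lower (blue, right of 0) and higher (red, left of 0) in replicate 1, in percent, with the number of members in brackets and dotted lines at the shares over all probe sets, 9.26% and 5.35%. Mitosis and G2/M (41.7%) and SR proteins and CLK kinases (38.5%) stand at the top.

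Over all probe sets 5.35% were higher, and the families with the largest shares of higher calls were of several kinds. The symbols that open with TIMM, mostly mitochondrial import proteins, had 3 of 15 higher (20%) at a median signal of 8.24, those with KCNJ, potassium channels, 3 of 16, and those with ALDH, aldehyde dehydrogenases, 3 of 19. Of 86 symbols that open with KRTAP, mostly keratin-associated proteins of hair, 13 were higher (15.1%) and 0 lower, and 51 lay under the gauge. Symbols that open with COL, mostly collagens and 1 antisense RNA, had 7 of 42 higher, such as *COL23A1* (8.13 and 8.03 against 7.76, 7.58, 7.58 and 7.59, difference 0.45) and *COL5A3* (0.64), those with MMP, matrix metalloproteinases and 1 antisense RNA, 4 of 23, those with CDH, cadherins, 4 of 21, and those with PLA, which include phospholipases, 5 of 20, among them the lysosomal *PLA2G15* (8.63 and 8.78 against 8.23, 8.03, 8.17 and 7.78, difference 0.65). Many members of these families were dim. Under the gauge lay 10 of 16 KCNJ symbols, 6 of 19 ALDH, 13 of 42 COL, 13 of 23 MMP, 12 of 21 CDH and 9 of 20 PLA, but 0 of 15 TIMM. After cyclic loess normalization the counts of higher calls for KRTAP, COL, MMP, CDH and PLA were 4, 2, 1, 1 and 1. Over all 21448 probe sets 569 were higher there. After centring by gene span, a setting described below and chosen after seeing the data, they were 5, 14, 4, 8 and 7. Beside them, 1469 of 17709 probe sets were higher in that setting, a larger share than that of KRTAP. The median of each of these 5 families stayed above 0 in both settings. Over all probe sets the medians were 0.02 and 0.07. Among 18 luminal breast markers, *ELF5*, *TFF3* and *ESR1*, the estrogen receptor, were higher by 0.91, 0.73 and 0.53, at mean signals of 2.79, 5.45 and 4.65. *ESR1* had 4.98 and 5.02 in replicate 1 against 4.37, 4.55, 4.32 and 4.64.

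The span of a gene on the chromosome moved with both kinds of call. Over the 17709 probe sets with a span in the gene table, cut into 10 bins of equal size by span, the share called lower was 0.678% in the bin of shortest genes (median 1.90 kb), 7.96% in the fifth (21.6 kb), 19.8% in the ninth (114 kb) and 15.1% in the longest (262 kb). The share called higher went from 10.6% in the shortest bin to 2.54% in the eighth. The median span was 61.0 kb for lower calls, 12.1 kb for higher calls and 23.7 kb for the rest. The median difference went from 0.25 in the shortest bin to -0.13 in the ninth, on both plasmids (0.18 to -0.12 with the empty vector and 0.31 to -0.16 with *circAAGAB*). Among genes above the gauge alone the shares called lower were 1.04% in the shortest bin and 25.3% in the ninth.

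**Figure D5:**
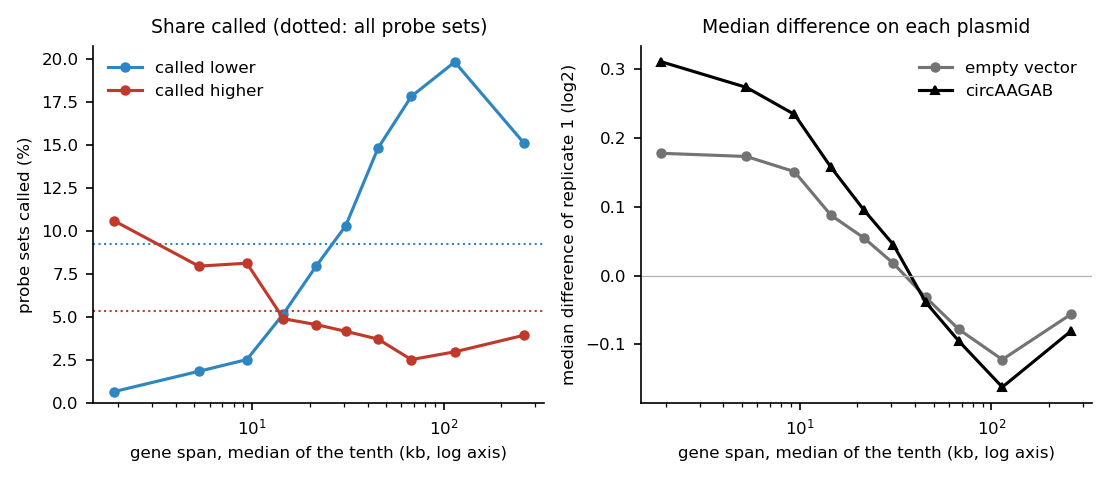
Left, share of probe sets called lower (blue) and higher (red) in percent in 10 bins of gene span, from short to long, with the shares over all probe sets dotted. Right, median difference of replicate 1 (log2) in the same bins with the empty vector (circles) and *circAAGAB* (triangles), against the median span of the bin in kb on a log axis. From the shortest bin to the ninth the lower share goes from 0.678% to 19.8%, and both medians go from above to below 0.

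When each array was centred within the 10 span bins, a setting chosen after seeing this, 1373 of 17709 probe sets were called lower and 1469 higher. Lower ones made up 48.3% of the calls in place of 63.4%. Of the lower calls, 1142 were shared with those made on the values as deposited. In that setting mitosis had 17 of 48 members lower and SR proteins and CLK kinases 8 of 26. The cohesin, condensin and SMC5/6 list had 13 of 28 lower, and in each of these lists 0 were higher. ZNF genes had 106 of 482 lower and 16 higher, and the CEP family 14 of 36 lower and 3 higher. The KIF family had 9 of 40 lower and 6 higher, and its median moved from -0.11 to 0.03. A check of the G and C content of promoters was void, since 73.4% of the higher calls had a promoter in the table used. The share of lower calls was 20% on chromosome 18 (median span 52.5 kb) and 19.2% on chromosome 13 (49.5 kb). It was 6.05% on chromosome 19 and 5.7% on chromosome 11, which had the shortest median spans (14.7 and 15.3 kb), and lowest, 1.5% and 3.21%, on chromosomes 22 and 20 (21.8 and 21.6 kb). The part of gene span in the results was not tested, and the length and base content of the transcripts were not analysed here.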

How the data were processed

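Per the labels and the study's methods, RNA of MDA-MB-231 cells was hybridised to 6 Clariom S arrays, 3 per plasmid, and the authors deposited log2 signals per probe set after robust multichip averaging (RMA), which corrects background, makes arrays alike and summarises probes. Such scaling sets levels relative to the other genes of an array. The software that ran RMA and the annotation version were not given in the sources used here.

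The deposited log2 values were used unchanged. Gene symbols came from the platform annotation for 17709 of 21448 probe sets (82.6%), 3739 had none, and gene spans and promoters came from RefSeq (GRCh38.p14). A difference is replicate 1 minus replicates 2 and 3, fitted with limma 3.58.1 in R 4.3.3 with the plasmid as covariate over all probe sets (3 residual degrees of freedom), two-sided, with Benjamini-Hochberg adjustment. An exact permutation that keeps 1 array of each plasmid has 9 arrangements and cannot give a p below 0.111. On simulated data, limma called 28.6%, 95.7% and 100% of probe sets changed 1.5-, 2- and 3-fold. Those runs held on average 18.2, 66.8 and 66.6 calls, far fewer than the 3133 here, so these shares need not hold for this comparison. In separate simulations with no change, it called 9.4 probe sets per run over 5 runs of 21448 probe sets. Like the p-values, this number does not allow for the choice of replicate 1.

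The replicate number, the gene lists and the alternatives were chosen with earlier results of these data known, and lists were described without a test. The genes named were the 12 of largest fold in each direction among those called, without overlap and above background, for each list with at least 2 times the background share of calls the 4 members with the lowest p, the cell type markers and *AAGAB*. Other list and family members were named after their values were seen. Alternatives were the scaling, the covariate, the dim probe sets, the test and leaving out each array.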

Additional observations from a re-analysis of the deposited data

Results flagged for a closer look

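Among the 4 arrays of replicates 2 and 3, the extreme array's gap to its nearest neighbour, as a part of the range, passed Dixon's limit in 2 of the 46 named genes. Chance marks about 1 in 20 such groups. For *CCDC185*, empty vector replicate 2 had a log2 signal of 5, the nearest other array 4.46 and the lowest 4.41, a ratio of 0.912. For *KISS1R* the same array had 5.079, the nearest other 4.84 and the lowest 4.81, a ratio of 0.882. In both genes the array still lay below both arrays of replicate 1.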

How the results depend on the processing

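Probe sets called lower in replicate 1 (1986) and higher (1147) kept within 1.5 times these counts without the plasmid covariate, after quantile normalization, median centring or centring by gene span, with a robust prior and without dim probe sets. With the replicate number as a block of 3 levels (the replicate block), 1568 were lower and 554 higher. Labels give no sign that the numbers pair cultures. Cyclic loess gave 569 higher, a prior trend 2994 lower and 1821 higher, the unpaired test of the methods 0 and 0 after adjustment (2929 and 3171 at an unadjusted p under 0.05), and an added minimum of 1.5-fold 624 higher. Leaving out 1 array at a time gave 0 to 1864 lower and 0 to 1630 higher, the lowest without *circAAGAB* replicate 1. Quantile normalization left 0 calls for the plasmid interaction (2615 at an unadjusted p under 0.05) and for replicate 2 against 3 (1004). Of the 46 named genes 34 were called. Of these, 33 or 34 kept their call under each scaling, 32 with the replicate block and 0 with the methods' test. Calls were kept in 0 without *circAAGAB* replicate 1, 21 without *circAAGAB* replicate 3 and 24 without empty vector replicate 3. Leaving out any other array kept 29 to 33. The signs of the 34 called genes were the same throughout. The sign turned in 5 genes that were not called. After centring by gene span the difference was 0.031 for *AAGAB*, -0.22 for *VIM*, 0.21 for *CD44* and 0.17 for *MSN*. It was -0.044 for *VIM* after median centring, 0.026 for *CD44* and -0.085 for *PGR* after cyclic loess, and -0.067 for *PGR* after quantile normalization. Leaving out 1 array at a time gave -0.46 to 0.063 for *AAGAB*, -0.082 to 0.10 for *VIM* and -0.22 to 0.35 for *PGR*. Of 396 list medians under the alternatives, 53 moved by more than the spread between replicates. The cause of these changes was not tested. Signal near background limits 41.3% of the higher calls.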
